A study of Mus musculus with 9 samples.

Results

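The responses described here are those of the L population of Comma-1D, a mouse mammary epithelial cell line, to 2 oncogenes. L cells were sorted as Sca-1 low and EpCAM high. They come from 3 of the 9 libraries of the study: L cells of the control arm, L cells transduced with MYC and L cells transduced with Her2, each a single library. The members are all genes measured in these 3 libraries, and the labels call both oncogenes activated. The other 6 libraries are the same 3 arms of the B population (Sca-1 high, EpCAM low) and of the bi population (Sca-1 high, EpCAM high), and serve as comparison. All 9 share the line and a medium with fetal calf serum, murine EGF, insulin and gentamicin. The labels do not give the species or vector of the transgenes, whether the controls carried an empty vector, or whether arms or populations came from separate cultures.

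MYC is a transcription factor that dimerises with MAX, binds E-box sequences and is best known for driving ribosome production and cell growth. Her2, encoded by Erbb2, is a receptor tyrosine kinase of the EGF receptor family. It signals through the RAS-ERK and PI3K-AKT pathways and has no ligand of its own, so it acts with the ligand-binding members EGFR and ERBB3. In the mammary gland, luminal cells carry keratins such as Krt8 and Krt18, basal cells carry Krt5, Krt14 and Trp63, and the Kit-positive luminal progenitors give rise to milk-producing alveolar cells.

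With 1 library per arm in L, each response is a ratio of 2 libraries and has no test. Both ratios use the same L control library, so a count that is off in that library moves both. Values are given as CPM, the read count of a gene scaled to the depth of its library (here with the TMM method of edgeR), and as log2 ratios of CPM with a prior count of 2. A gene was measured in L if it reached 5 CPM in at least 1 of the 3 L libraries, which held for 11238 genes. The L libraries held 75.4 M (control), 69.3 M (MYC) and 75.6 M (Her2) reads, and the 9 libraries 46.9 to 98.9 M. At that depth a gene at 5 CPM in the control and 10 CPM with MYC has a 95% interval of 0.82 to 1.18 around a log2 ratio of 1. The interval covers counting error only, and the spread between separate cultures is unknown.

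The transduced genes were checked first. Myc was at 83.2 CPM in L control, 207 in L MYC and 96.5 in L Her2. Erbb2 was at 88.9, 69.0 and 650 CPM in the same order. Each gene was highest in the library labelled with it, by 2.48-fold for Myc and 7.32-fold for Erbb2 against control. Of the sort markers, Epcam was at 408, 331 and 609 CPM and Ly6a, which encodes Sca-1, at 6.52, 12.8 and 2.37 CPM, while the 3 B libraries held Epcam at 0.183 to 0.763 CPM and Ly6a at 19.4 to 112 CPM. The L libraries expressed luminal and basal genes together, with Krt18 at 133 and Krt5 at 2151 CPM in the control, so the label L names the sort gate and not a purely luminal cell. Of 6 leukocyte markers 5 stayed under 1 CPM in every L library, 2 of them without a read, as did 3 of 4 endothelial and 2 of 4 fibroblast and adipocyte markers. Pdgfra, a fibroblast marker, was at 13.8 to 14.4 CPM in the 3 L libraries. The remaining leukocyte marker, Cd68, was at 3.16 CPM in L control, 3.46 in L MYC and 7.12 in L Her2, a log2 ratio of 1.17 with Her2.

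With MYC, 327 of the 11238 measured genes were at least 2-fold higher in L (2.91%) and 437 were at least 2-fold lower (3.89%). With Her2, 643 were higher (5.72%) and 381 lower (3.39%). The balance of higher and lower genes depended on the scaling. Without TMM, on library totals alone, 478 genes were higher and 270 lower with MYC, and 471 higher and 562 lower with Her2. On the deposited TPM values 269 were higher and 334 lower with MYC, and 371 higher and 477 lower with Her2. The median log2 ratio over all measured genes was -0.16 for MYC and 0.00 for Her2 under TMM, against 0.00 and -0.18 on library totals. On TPM it was -0.15 for MYC and -0.27 for Her2. List medians below are to be read against the all-gene median of the same scaling. Around the threshold, 168 genes lay within 0.1 log2 above and 243 within 0.1 below it for MYC, and 147 and 191 for Her2.

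Genes were grouped by both ratios. A gene counted as moved at 2-fold, and as specific to 1 oncogene if the other ratio was under 0.5 log2 either way. Of 1509 genes that moved with at least 1 oncogene (13.4% of those measured), 115 were higher and 203 lower with MYC only, and 325 were higher and 164 lower with Her2 only. The oncogenes moved 49 genes the same way, 24 up and 25 down, and 230 in opposite ways. Of the opposite genes 96 were higher with MYC and lower with Her2, and 134 were lower with MYC and higher with Her2. The remaining 423 fell between these limits. The opposite genes thus outnumbered the shared ones 230 to 49. Both ratios share the control library.

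**Figure D1:**
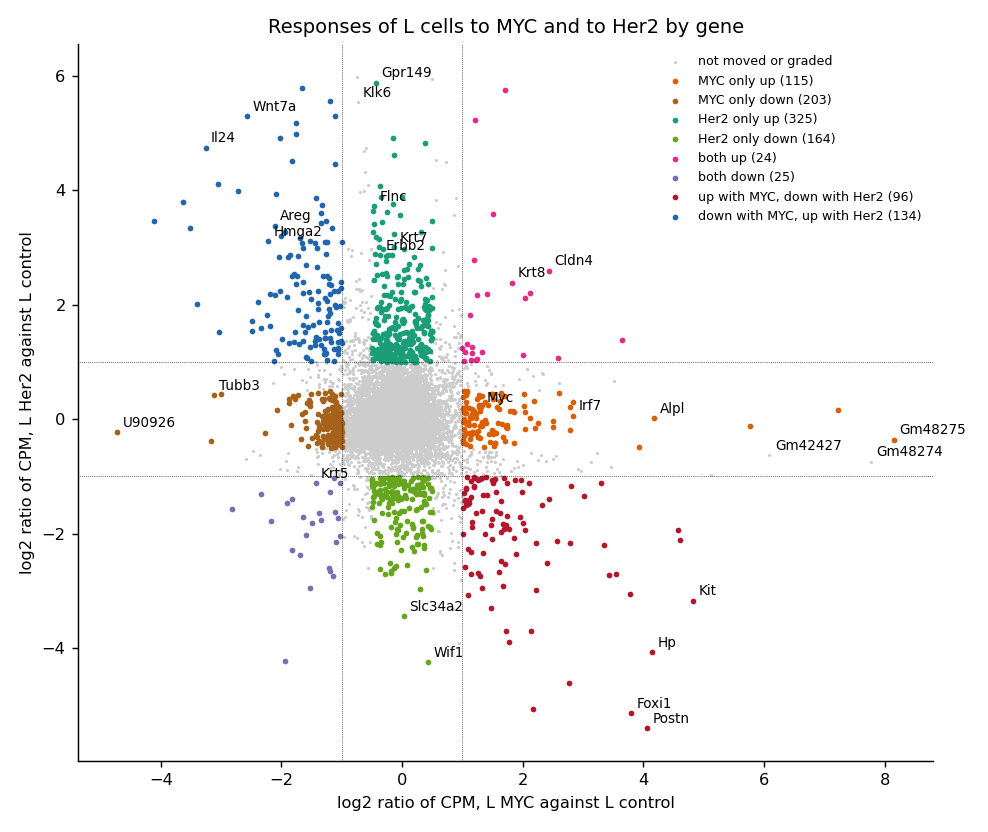
Each point is 1 of the 11238 genes measured in L, with its log2 ratio for MYC against control on the horizontal axis and for Her2 against control on the vertical axis. Colours mark the response classes and dotted lines the 2-fold limits; the upper left and lower right quadrants, with 134 and 96 genes, hold more than the upper right and lower left, with 24 and 25.

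Genes higher with MYC and lower with Her2 included several of the luminal progenitor and secretory programme. Kit, the receptor for stem cell factor and a marker of luminal progenitors (chr5:75574916-75656722, mm10), was at 0.897 CPM in L control, 26.1 in L MYC and 0.0732 in L Her2. Csn1s1, a casein of milk, was at 3.17, 34.3 and 0.454 CPM. Pigr, which carries immunoglobulins across secretory epithelium, was at 1.78, 21.2 and 0.249 CPM. All 3 were low in control, highest with MYC and lowest with Her2, with log2 ratios of 4.82, 3.42 and 3.55 for MYC and -3.17, -2.73 and -2.70 for Her2. Elf5, the alveolar master regulator, followed the same order at 3.73, 11.5 and 1.17 CPM.

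Of 11 measured luminal progenitor and alveolar regulators, 4 were 2-fold higher and none lower with MYC (median log2 ratio 0.54). With Her2 4 were higher and 3 lower (median 0.17, against 0.00 for all measured genes). The Her2 median was -0.46 on library totals (all genes -0.18) and -0.12 on TPM (all genes -0.27). Of the 11, 2 reached the floor only with MYC and 2 only with Her2. Of the 7 at 5 CPM in control 1 was higher with MYC, and 2 were higher and 1 lower with Her2. Aldh1a3, a retinaldehyde dehydrogenase of luminal progenitors, was higher with both, at 1.31, 3.13 and 6.04 CPM. Of 10 measured milk and secretory genes 4 were higher and 1 lower with MYC (median 0.81), and 3 were higher and 3 lower with Her2 (median -0.16). Of the 7 at 5 CPM in control 2 were higher and 1 lower with MYC (median 0.41), and 3 were higher and 1 lower with Her2, with a median of 0.51 and so of the other sign. Ltf, the iron-binding milk protein lactoferrin, was at 68.7, 411 and 144 CPM and so higher with both, while Spp1, osteopontin, was at 841 CPM in control, 229 with MYC and 2130 with Her2 and so opposite to the caseins. Foxi1, a forkhead factor of acid-secreting cells, and Atp6v1b1, a subunit of the proton pump, were at 1.01 and 0.702 CPM in control and at 14.5 and 17.4 CPM with MYC. With Her2, Foxi1 had no read against 78 in the control, at least 23.1-fold lower on a floor of 3 reads, and Atp6v1b1 was at 0.161 CPM.

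Hp, haptoglobin, and Postn, the matrix protein periostin, had the greatest opposite ratios, ranked by the smaller of the pair. Hp (chr8:109575128-109579172) was at 13.6 CPM in control, 240 with MYC and 0.776 with Her2. Postn was at 23.5, 393 and 0.527 CPM. The ratios were 4.14 and 4.06 with MYC and -4.08 and -5.4 with Her2. Hp belongs to the acute-phase and innate defence genes, of which 16 were measured: 8 were 2-fold higher and 3 lower with MYC (median 1.02), and 1 was higher and 6 lower with Her2 (median -0.73). Lbp, the lipopolysaccharide-binding protein, was at 26.1, 82.9 and 7.32 CPM, and the protease inhibitor Serpina3n at 1.49, 6.71 and 0.0879 CPM. The alarmin S100a9 went the other way, at 7.99, 1.97 and 15 CPM. Since 5 of the 16 reached 5 CPM only with MYC, the count with MYC is partly set by that floor: of the 11 at 5 CPM in control, 3 were higher and 3 lower (median 0.37).

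Genes lower with MYC and higher with Her2 were led by secreted factors. Il24, a cytokine of the IL-10 family, was at 3.40 CPM in L control, 0.330 with MYC and 92.3 with Her2. Wnt7a, a Wnt ligand, was at 1.59, 0.241 and 63.6 CPM, and Areg, the EGF receptor ligand amphiregulin (chr5:91139599-91148432), at 11.6, 2.66 and 122 CPM. Hmga2, a chromatin protein of fetal and tumour tissue, was at 40.1, 8.60 and 347 CPM. Each was lowest with MYC and highest with Her2, and the log2 ratios were -3.26, -2.58, -2.11 and -2.22 for MYC and 4.75, 5.30, 3.38 and 3.11 for Her2. Odc1, the first enzyme of polyamine synthesis and a textbook MYC target, belonged here too, at 164, 49.7 and 1190 CPM. So did Cdkn1a, the cell cycle inhibitor p21, at 27.2, 10.2 and 173 CPM. Prl2c2 and Prl2c3, prolactin-family proteins, had ratios of -3.51 and -3.06 with MYC and 3.35 and 4.11 with Her2, but their near-identical sequences make the division of reads between them uncertain.

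**Figure D2:**
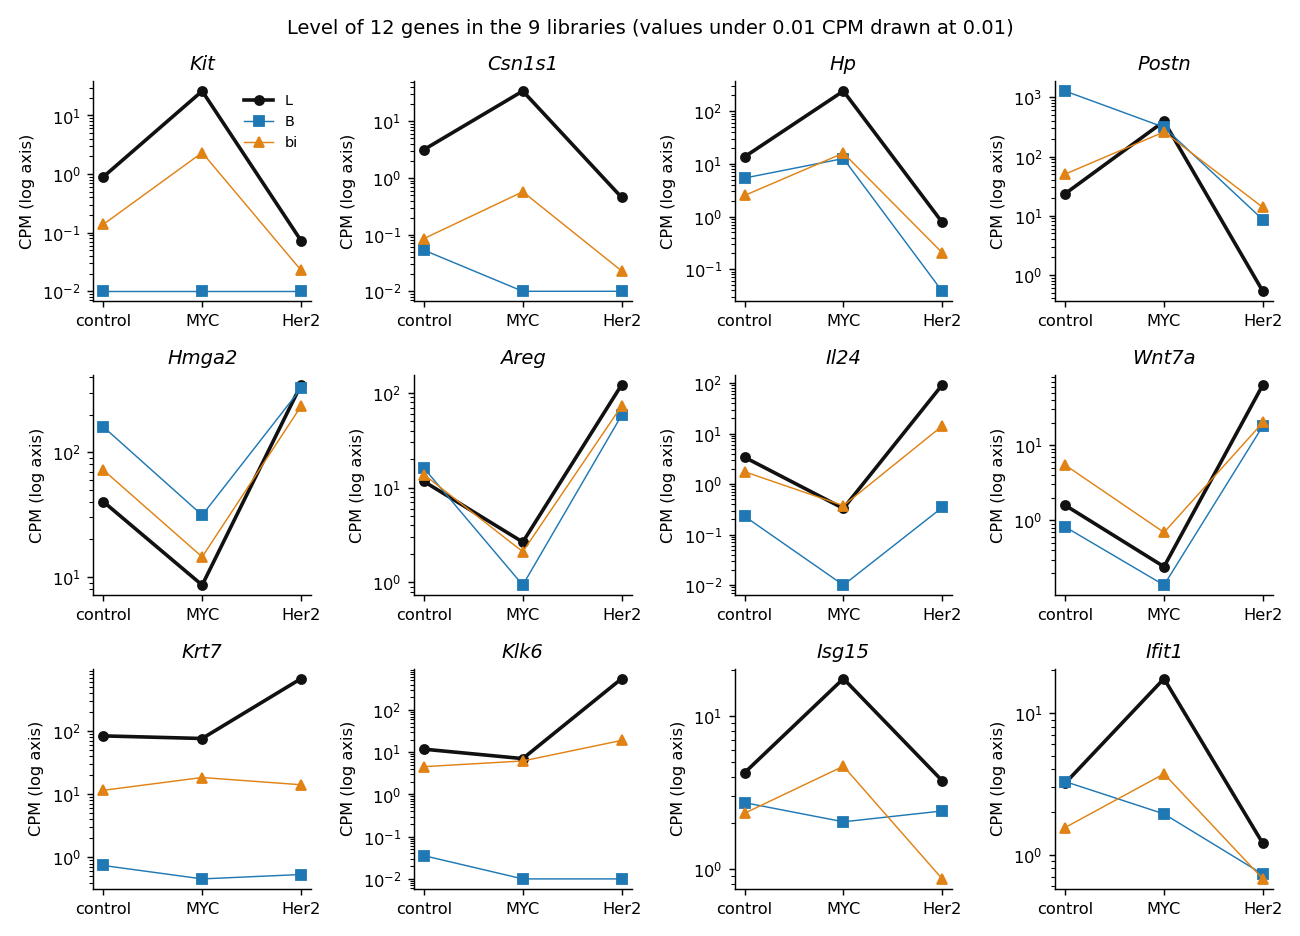
CPM on log axes of 12 genes in the 3 arms, with L in black circles, B in blue squares and bi in orange triangles, 1 library per point; lines join the libraries of a population. In L the first row peaks with MYC, the second with Her2, and Isg15 and Ifit1 in the last row are highest with MYC at 17.7 and 17.5 CPM.

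Some ligands of the EGF family showed this pattern, with Areg, Ereg and Hbegf opposite. Of 12 ligands and receptors measured, 6 were 2-fold higher and none lower with Her2 (median 1.08), and none was higher and 5 were lower with MYC (median -0.45). The 6 with Her2 were Areg, Hbegf (31.3 CPM in control, 266 with Her2), Ereg (46.5 and 144), Btc (2.68 and 7.78), Tgfa (50.9 and 126) and Erbb2 itself. Erbb2 is the gene of the Her2 arm, so its place among the 6 and in the median is not a separate response. The 5 with MYC were Ereg, Nrg1, Areg, Epgn and Hbegf, at 10.2, 20.1, 2.66, 1.40 and 11.5 CPM. The receptors other than Erbb2 did not reach 2-fold in either arm: Egfr was at 144, 143 and 73.7 CPM and Erbb3, the kinase-poor partner of Her2, at 62.4, 98.9 and 110 CPM. The direction of both medians was the same on library totals, with DESeq2 size factors and on TPM.

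ERK feedback and immediate-early genes are induced within minutes to hours of ERK signalling, and the feedback members then restrain it. Of 30 measured members 14 were higher with Her2 and none lower (median 0.90). With MYC 1 was higher and 7 were lower (median -0.19, close to that of all genes). Dusp1 and Dusp5, phosphatases of the MAP kinases, were at 18.3 and 12.5 CPM in control, 25.8 and 11.3 with MYC and 202 and 118 with Her2. Errfi1, an inhibitor of EGF receptors, was at 46.5, 61.5 and 259 CPM. These 3 responded to Her2 alone, whereas Spry4, a RAS pathway inhibitor at 1.07, 0.266 and 7.75 CPM, and Fosl1, an AP-1 subunit at 15.8, 5.05 and 83.9 CPM, were opposite. Etv4 and Etv5, ETS factors downstream of ERK, were lower with MYC at ratios of -1.87 and -1.59 and little different with Her2 at 0.29 and 0.66. The single member higher with MYC was Egr2, at 3.57, 8.03 and 3.79 CPM. Early members were uneven: Fos had a ratio of 1.95 with Her2, but Egr1 and Junb had 0.82 and 0.89.

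Matrix proteases and plasminogen regulators were higher with Her2 in 9 of 18 measured members and lower in 1 (median 1.05), and higher with MYC in 1 and lower in 5. Mmp10, stromelysin-2, was at 0.455, 0.114 and 15.4 CPM. Serpinb2, an inhibitor of plasminogen activators, was at 2.77, 0.393 and 44.4 CPM, and Plaur, the urokinase receptor, at 13.7, 9.65 and 108 CPM. All 3 were highest with Her2. Mmp2, gelatinase A, was the member lower with Her2, at 16.6, 11.1 and 2.71 CPM, and Mmp15, a membrane-bound protease, the member higher with MYC, at 7.41, 42.0 and 7.24 CPM. As 4 members passed the floor only with Her2, the 13 at 5 CPM in control are the fairer base: 5 of them were higher and 1 lower with Her2 (median 0.26). Of integrin subunits and laminin chains, through which epithelial cells hold the basement membrane, 8 of 21 were higher and 1 lower with Her2 (median 0.75), led by Itga7 (10.3, 7.22 and 54.9 CPM).

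To show what the promoters of such genes hold, the 250 bases before the RefSeq start (GRCm38.p6, the build of mm10) were searched on both strands for the AP-1 letters TGANTCA, which read the same on either strand. The choice of motifs and of the promoters printed was made after the values were seen. The letters stood in 20 of the 98 matched promoters of genes lower with MYC and higher with Her2 (20.4%) and in 5 of 13 of the protease list (38.5%). This compares with 4.09% of 8579 matched measured genes and 6.85% of all 27025 promoters of that length. Other genes higher with Her2 held them less often: 19 of 238 higher with Her2 only (7.98%), 1 of 22 of the ERK feedback list and 0 of 6 of the EGF family list. Interferon response genes, mostly not higher with Her2, held them in 5 of 25 (20%). A match is a description of the sequence and not a shown site of binding. An AP-1 match may share its last bases with an E-box match. The 3 promoters below belong to the protease genes just described, read 5′ to 3′ on the strand of the gene with the match in capitals. Mmp10 lies at chr9:7502092-7502341 on the plus strand, Serpinb2 at chr1:107511173-107511422 on the plus strand and Plaur at chr7:24462233-24462482 on the plus strand.
Mmp10: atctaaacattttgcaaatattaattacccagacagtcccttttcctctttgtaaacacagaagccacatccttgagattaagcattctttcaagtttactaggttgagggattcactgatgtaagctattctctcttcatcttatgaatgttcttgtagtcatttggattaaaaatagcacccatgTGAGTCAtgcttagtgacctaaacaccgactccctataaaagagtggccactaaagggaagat
Serpinb2: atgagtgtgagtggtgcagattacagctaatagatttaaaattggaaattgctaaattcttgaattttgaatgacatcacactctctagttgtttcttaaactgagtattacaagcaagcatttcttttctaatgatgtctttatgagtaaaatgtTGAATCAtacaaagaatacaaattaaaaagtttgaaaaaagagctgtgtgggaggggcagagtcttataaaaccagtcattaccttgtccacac
Plaur: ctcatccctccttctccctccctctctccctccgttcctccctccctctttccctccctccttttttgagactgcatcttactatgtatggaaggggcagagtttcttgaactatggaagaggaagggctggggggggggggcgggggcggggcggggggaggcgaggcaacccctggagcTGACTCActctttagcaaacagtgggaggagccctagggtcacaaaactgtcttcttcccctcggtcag
In Mmp10 and Plaur the match reads TGAGTCA and TGACTCA, and in Serpinb2 TGAATCA.

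Genes of keratinocyte differentiation and the cornified envelope, the barrier of stratified epithelium, were lower with MYC in 10 of 20 measured members and higher in none (median -1.05), and higher with Her2 in 12 and lower in none (median 1.27). Ivl, involucrin, was at 10.7 CPM in control, 2.00 with MYC and 44.5 with Her2. The kallikrein proteases stood out for Her2: Klk6 was at 11.8, 7.06 and 553 CPM, Klk10 at 54.9, 19 and 478 CPM and Klk8 at 36.3, 16.2 and 369 CPM. Sprr1a, a small proline-rich envelope protein, was at 1.85, 0.748 and 20.8 CPM. Krt80, an epithelial keratin, was at 15.5, 16.7 and 102 CPM and so differed with Her2 alone. Spink5, a kallikrein inhibitor, was lower in level in both arms, at 102, 30.6 and 54.2 CPM. Of the 17 members at 5 CPM in control, 9 were lower with MYC and 9 higher with Her2. Both medians kept their sign under the other 3 scalings.

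Keratins and other markers shared by luminal cells were higher with Her2 in 8 of 14 measured members and lower in 1. Krt7 (chr15:101411043-101430313) was at 84.2 CPM in control, 76.6 with MYC and 680 with Her2. Krt18 was at 133, 253 and 850 CPM and Krt19 at 1.36, 2.50 and 16.5 CPM. Krt8 was at 5.89, 20.9 and 31.0 CPM and Cldn4, a tight junction claudin, at 14.3, 77.1 and 86.5 CPM. Krt7 thus differed with Her2 only, while Krt8 and Cldn4 were higher with both oncogenes. Ehf, an epithelial ETS factor, was the member lower with Her2, at 349, 628 and 124 CPM. With MYC 3 members were higher and none lower (median 0.54). Of 23 epithelial junction and polarity genes, 5 were higher and 1 lower with Her2 (median 0.48), and 2 were higher and 1 lower with MYC (median 0.15).

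Basal and myoepithelial genes were lower in both arms, in 6 of 16 members with MYC (1 higher, median -0.85) and in 7 with Her2 (2 higher, median -0.69). Krt5 was at 2151 CPM in control, 796 with MYC and 993 with Her2, and Krt14 at 1128, 586 and 603 CPM. Trp63, the p63 factor of basal cells, was at 357, 215 and 121 CPM and Snai2, a zinc finger factor of basal cells, at 65.4, 50.7 and 14.2 CPM. In bulk RNA, fewer cells of a type and less of its RNA per cell cannot be told apart. Summed over the 5 basal markers, the level was 3642 CPM in control, 1611 with MYC and 1719 with Her2, and over the 9 luminal markers 1016, 1230 and 2918 CPM. The basal list was not uniform, since Lgr6, a stem cell receptor, had a ratio of 3.10 with Her2, and the smooth muscle genes Acta2 (6.41, 12.3 and 1.33 CPM) and Oxtr (2.12, 5.4 and 0.396 CPM) were higher with MYC and lower with Her2.

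Mesenchymal transition genes were lower with MYC in 6 of 17 measured members and higher in 1 (median -0.67), and higher with Her2 in 6 and lower in 3 (median 0.79). Cdh2, N-cadherin, was at 25.5, 7.67 and 96.6 CPM and Prrx1, a mesenchymal homeobox factor, at 51.4, 16.5 and 239 CPM. Snai1, a repressor of E-cadherin, was at 0.923, 0.774 and 5.36 CPM. All 3 were highest with Her2. In the same library Cdh1, E-cadherin, stood at 365 CPM in control, 431 with MYC and 644 with Her2. Postn and Snai2, described above, had the lowest Her2 ratios of this list, -5.4 and -2.21.

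Interferon response genes, which cells induce when interferon binds its receptors, were higher with MYC. Of 32 measured members 23 were 2-fold higher and none lower (median 1.82). With Her2 1 was higher and 4 were lower (median -0.40). Irf7, a transcription factor that amplifies the response, was at 2.05 CPM in control, 14.9 with MYC and 2.14 with Her2. Isg15, a ubiquitin-like modifier, was at 4.26, 17.7 and 3.78 CPM, Ifit1, which binds foreign RNA, at 3.20, 17.5 and 1.20 CPM and Ifih1, the RNA sensor MDA5 (chr2:62595798-62646255), at 13.8, 63.7 and 12.4 CPM. In each the MYC library stood above the other 2. The greatest ratios were those of Mx2 (3.93), Rsad2 (3.65) and Ifi44 (3.23), all under 1 CPM in control.

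This count is tied to the floor, since 14 of the 32 reached 5 CPM only with MYC. Of the 17 members at 5 CPM in control, 8 were higher and none lower with MYC, with a median of 0.75. Members did not move alike: Irf9 was at 7.6, 25.4 and 7.09 CPM and Stat2 at 14.5, 29.8 and 14.6 CPM, while Ifit2 was at 17.5, 16.0 and 16.2 CPM. Of 15 measured genes of a separate list of interferon ligands, receptors and nucleic acid sensing, which does not hold the induced sensors Ifih1 and Ddx58, none reached 2-fold in either arm, and the receptor subunits Ifnar1 and Ifnar2 had ratios of 0.04 and 0.03 with MYC. MHC class I antigen presentation genes had a median of 0.41 with MYC, with 2 of 13 higher, Tap1 and Tap2, the peptide transporter.

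The interferon-stimulated response element letters, GAAA followed by any 2 bases and GAAA, were searched on both strands of the same promoter windows. They stood in 11 of 25 matched promoters of measured interferon response genes (44%) and in 20 of 38 of the whole list (52.6%), against 2.52% of measured genes and 3.05% of all promoters. The promoters of 4 genes higher with MYC are printed, with the match in capitals, and runs longer than the motif are overlapping matches. Rsad2 lies at chr12:26456453-26456702 on the minus strand, Igtp at chr11:58199306-58199555 on the plus strand, Bst2 at chr8:71537473-71537722 on the minus strand and Isg15 at chr4:156200819-156201068 on the minus strand.
Rsad2: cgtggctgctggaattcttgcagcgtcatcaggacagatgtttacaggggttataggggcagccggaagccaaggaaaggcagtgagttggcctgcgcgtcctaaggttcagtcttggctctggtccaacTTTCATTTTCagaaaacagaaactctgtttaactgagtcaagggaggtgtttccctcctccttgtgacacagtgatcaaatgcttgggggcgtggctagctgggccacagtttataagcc
Igtp: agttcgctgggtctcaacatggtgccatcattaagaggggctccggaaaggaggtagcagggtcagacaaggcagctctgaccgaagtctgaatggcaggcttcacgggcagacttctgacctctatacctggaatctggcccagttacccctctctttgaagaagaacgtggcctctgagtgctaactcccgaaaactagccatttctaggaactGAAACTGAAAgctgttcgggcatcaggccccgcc
Bst2: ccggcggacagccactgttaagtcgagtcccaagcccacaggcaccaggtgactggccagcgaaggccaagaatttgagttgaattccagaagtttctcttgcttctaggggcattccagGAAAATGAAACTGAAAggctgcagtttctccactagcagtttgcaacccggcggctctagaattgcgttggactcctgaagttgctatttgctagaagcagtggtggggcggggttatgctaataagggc
Isg15: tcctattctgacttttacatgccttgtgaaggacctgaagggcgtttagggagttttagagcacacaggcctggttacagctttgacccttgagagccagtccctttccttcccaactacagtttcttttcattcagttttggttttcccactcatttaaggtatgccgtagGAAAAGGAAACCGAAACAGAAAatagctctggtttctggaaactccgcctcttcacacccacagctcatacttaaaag
In Rsad2 the match is on the opposite strand and is printed as TTTCATTTTC. Igtp, an interferon-inducible GTPase, was at 1.30, 5.75 and 1.32 CPM, Bst2, the virus tether tetherin, at 3.86, 16.4 and 7.15 CPM and Rsad2, the antiviral enzyme viperin, at 0.429, 5.71 and 1.17 CPM.

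**Figure D3:**
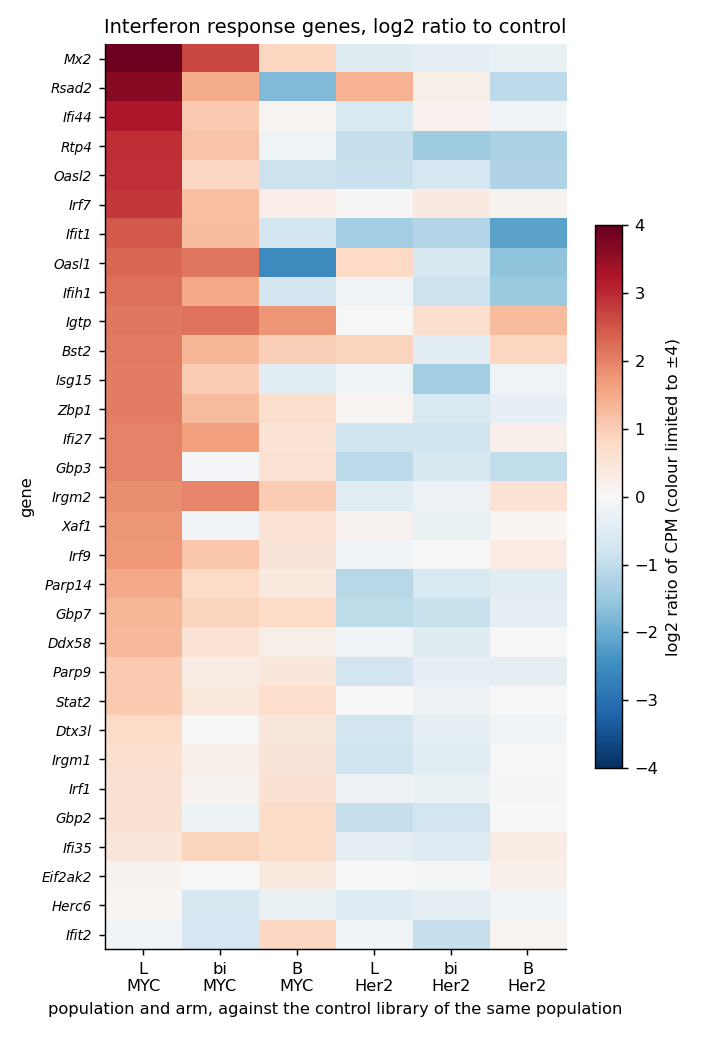
Log2 ratios to the control library of the same population for interferon response genes measured in L, ordered by the ratio for L MYC, with red for higher and blue for lower. The first column, L MYC, is red for most genes, the bi MYC column less so, and the 3 Her2 columns are pale or blue for most genes.

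Cell cycle genes were lower with MYC. Of 48 genes of the G1/S transition and DNA replication, 30 were 2-fold lower and none higher with MYC (median -1.09), and none moved with Her2 (median -0.24). Rrm2, a subunit of ribonucleotide reductase, was at 189 CPM in control, 62.6 with MYC and 170 with Her2. E2f8, a repressor of the E2F family, was at 73.5, 24.0 and 80.4 CPM, and Mcm3, part of the replicative helicase, at 259, 106 and 245 CPM. Of 54 G2/M and mitosis genes, 21 were lower and none higher with MYC (median -0.93), among them Plk1, a mitotic kinase at 114, 48.0 and 128 CPM. Many members lay close to 2-fold, so on library totals the counts with MYC were 17 and 7, with medians of -0.94 and -0.77. Of 14 D-type cyclins, CDK inhibitors and related genes, none was higher and 3 were lower with MYC (Cdkn1a, Cdkn2c and Rbl1), and 2 were higher with Her2, Cdkn1a and Ccnd1. Ccnd1, cyclin D1, was at 781, 424 and 1659 CPM.

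Genes of ribosome biogenesis and other textbook MYC targets were not higher with MYC. None of 58 reached 2-fold up and 5 were 2-fold lower (Odc1, Nme1, Tfrc, Cad and Rrp12), with a median of -0.64 that stayed negative, at -0.49, on library totals. Ncl, nucleolin, was at 866 CPM in control, 543 with MYC and 843 with Her2, and Npm1, nucleophosmin, at 620, 470 and 532 CPM. With Her2, 1 of the 58 was higher, Odc1, and the median was -0.04. The E-box letters CACGTG, to which MYC and MAX bind, stood in 6 of 77 matched promoters of genes higher with MYC only (7.79%). They stood in 9 of 65 of genes higher with MYC and lower with Her2 (13.8%) and 1 of 16 higher with both (6.25%), against 8.79% of measured genes. Genes lower with MYC held them in 14 of 144 for MYC only (9.72%), 3 of 19 lower with both (15.8%) and 2 of 98 higher with Her2 (2.04%). Of the MYC partner network, Mxd4, a MAX-binding repressor, was at 23.6, 66.2 and 11.3 CPM, and Mxd1, a related repressor, at 12.9, 13.0 and 66.3 CPM.

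Among genes higher with MYC only, Alpl, alkaline phosphatase, had 1.18 CPM in control, 22 with MYC and 1.20 with Her2. Clu, the chaperone clusterin, was at 24.6, 149 and 33.7 CPM, and Ano1, a chloride channel, at 29.3, 139 and 28.1 CPM. Genes lower with MYC only were led by U90926 (11.8, 0.419 and 10.1 CPM) and Tubb3, a neuronal tubulin (8.42, 0.939 and 11.3 CPM). Outside the rule for named genes, and picked out after their values were seen, 5 predicted non-coding loci had the highest ratios with MYC. Gm48275, Gm48274, Gm42031, Gm42427 and Gm43305 had log2 ratios of 8.16, 7.78, 7.23, 6.09 and 5.76 with MYC and -0.36, -0.74, 0.16, -0.63 and -0.12 with Her2. Gm42427 was at 161 CPM in L control and 10948 in L MYC. The same 5 were higher with MYC in B and bi, at ratios of 4.21 to 7.72 in B and 3.74 to 7.36 in bi.

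Genes higher with Her2 only were led by Gpr149, an orphan receptor at 0.182, 0.127 and 12.5 CPM, and Slc9a2, a sodium-proton exchanger at 0.455, 0.406 and 14.6 CPM. Flnc, the actin crosslinker filamin C (chr6:29433256-29461883), was at 35.8, 26.0 and 473 CPM. Control and MYC libraries were close to each other in all 3, and the Her2 library stood apart. Some cytokine genes were higher with Her2 as well: Csf2, which encodes GM-CSF, was at 0.104, 0.0127 and 7.37 CPM, Tslp at 0.507, 0.393 and 7.90 CPM and the chemokine gene Cxcl2 at 5.52, 15.8 and 66.8 CPM. Of 29 measured NF-kB targets, chemokines and cytokines, 12 were higher and 2 lower with Her2 (median 0.44), and 7 of the 29 reached the floor only with Her2. Of the 20 at 5 CPM in control, 5 were higher and 2 lower, with a median of -0.05 and so of the other sign. The 2 lower were Icam1, an adhesion molecule at 26.9, 57.3 and 5.55 CPM, and Cxcl5.

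Genes lower with Her2 only included Wif1, a secreted Wnt inhibitor at 8.30, 11.1 and 0.410 CPM, and Slc34a2, a phosphate transporter at 23.8, 24.2 and 2.17 CPM. Col6a2, a collagen VI chain, was at 13.6, 11.2 and 2.05 CPM and Trp73, the p73 relative of p53, at 19.2, 16.8 and 3.03 CPM. Serpina3g and Serpina3i had ratios of -2.59 and -2.57, and belong to a family of near-identical copies whose reads may be divided wrongly. Fbxo32, a ubiquitin ligase induced by FOXO factors, was lower with Her2 and higher with MYC at 109, 348 and 14.4 CPM. Lower in both arms were Npsr1, a neuropeptide receptor (16.4, 4.60 and 3.34 CPM), Cyp7b1, an oxysterol hydroxylase (32.2, 9.93 and 6.15 CPM), and Fstl1, a secreted glycoprotein (35.1, 13.8 and 10.3 CPM). Higher in both were Ankrd1 and Ccn1, targets of YAP signalling, at 19.8 and 76.9 CPM in control, 85.7 and 314 with MYC and 91.3 and 335 with Her2.

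Other lists varied. None of 25 cholesterol synthesis genes reached 2-fold with either oncogene, with medians of -0.19 with MYC and 0.11 with Her2. Of 22 NRF2 target and glutathione genes none moved with MYC, and 1 was higher and 3 lower with Her2. Of 29 hypoxia and glycolysis genes, 1 was higher and 1 lower with MYC, and 6 were higher and 1 lower with Her2 (median 0.62, with 27 ratios above 0), led by Ndrg1 at 33.3, 40.2 and 179 CPM. On library totals 3 were higher with Her2 (median 0.45, against -0.18 for all measured genes). On TPM 1 was (median 0.33, against -0.27). Among 15 Wnt ligands, antagonists and feedback targets 1 was higher and 5 lower with MYC (median -0.72) and 3 were higher and 4 lower with Her2 (median -0.55), and the members diverged: Wnt5b was at 1.07, 12.1 and 0.586 CPM, opposite to Wnt7a. Of 24 p53 targets 2 were higher and 2 lower with MYC, and 3 were higher and 2 lower with Her2.

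The B and bi libraries were then read for the same genes, each against its own control. Of the 327 genes higher with MYC in L, 203 were also 2-fold higher in bi (62.1%, against 4.68% of all measured genes) and 69 in B (21.1%, against 3.19%), while 67 were 2-fold lower in B and 2 in bi. Of the 437 lower with MYC in L, 278 were lower in bi (63.6%, against 5.67%) and 133 in B (30.4%, against 4.6%). Of the 643 higher with Her2 in L, 127 were higher in bi (19.8%, against 1.53%) and 149 in B (23.2%, against 4.64%). Of the 381 lower with Her2 in L, 126 were lower in bi (33.1%, against 2.9%) and 175 in B (45.9%, against 5.94%). For MYC the share moving the same way was higher in bi than in B in both directions. For Her2 it was higher in B, where more of all genes moved. Ratios of the same sign are to be read against all measured genes. Of genes higher with Her2 in L, 79.5% had that sign in bi (against 18.6%) and 62.8% in B (against 63.8%). Of those lower, 93.4% had it in bi (against 81.4%) and 80.6% in B (against 36.1%). Of the genes higher with Her2 in L, 73 were 2-fold lower in B and 16 in bi.

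**Figure D4:**
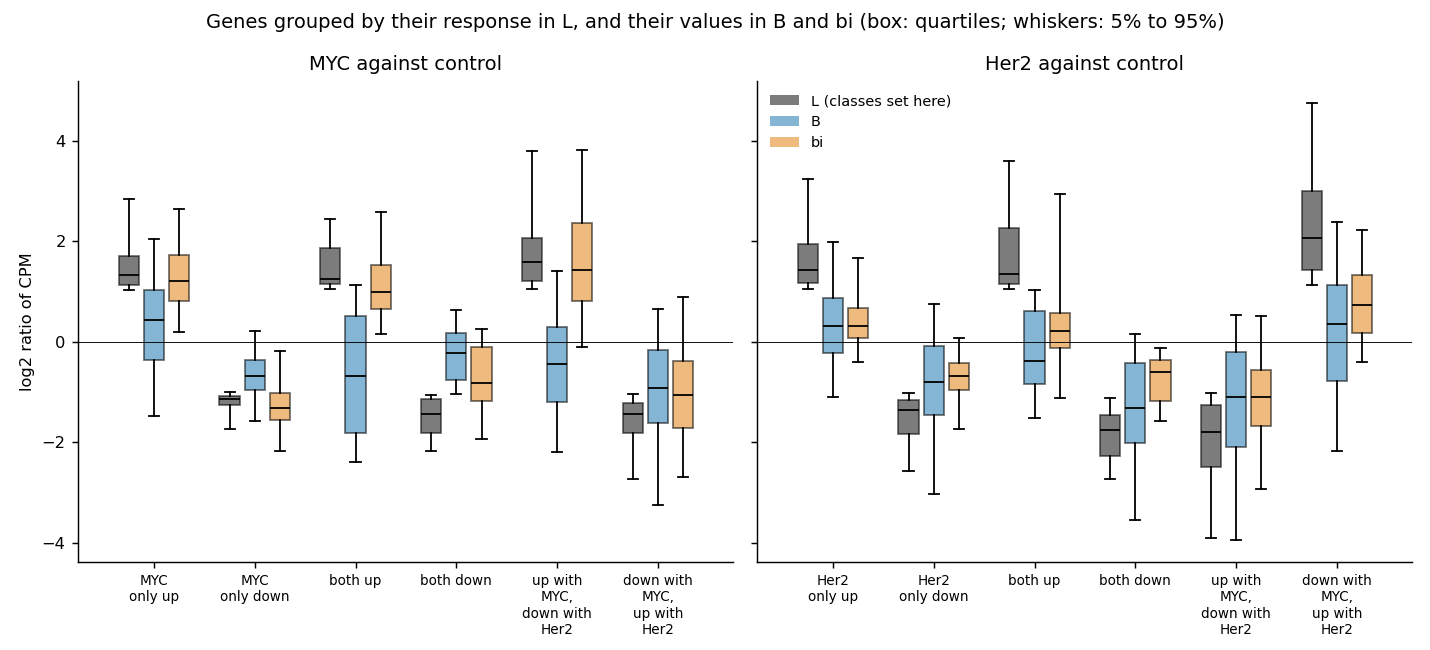
Log2 ratios against control, for MYC on the left and Her2 on the right, of the genes in each L response class; boxes show quartiles and whiskers 5% to 95% of genes in L (grey, where the classes were set), B (blue) and bi (orange). Genes higher with MYC and lower with Her2 have a median of 1.415 with MYC in bi and -0.45 in B.

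The classes differed in this. Genes higher with MYC and lower with Her2 in L had a median MYC ratio of -0.45 in B, where 28 of 96 were 2-fold lower and 12 higher, and only 54 reached 1 CPM in a B library of that comparison. In bi 64 of the 96 were higher with MYC and none lower. With Her2 the same genes were lower in 52 of 96 in B and 54 in bi. Genes lower with MYC and higher with Her2 in L were lower with MYC in 62 of 134 in B and 74 in bi, and higher with Her2 in 38 in B and 46 in bi. With Her2, 26 of the 134 were 2-fold lower in B and 2 in bi. Of the 24 genes higher with both in L, 4 were higher and 10 lower with MYC in B, and 11 were higher with MYC in bi. With Her2 3 were higher in B and 5 in bi. Only 15 of the 24 reached 1 CPM in a B library of either comparison. Of all measured genes, 3.19% were 2-fold higher and 4.6% lower with MYC in B, and 4.68% and 5.67% in bi. With Her2 these shares were 4.64% and 5.94% in B, and 1.53% and 2.9% in bi.

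Single genes illustrate both outcomes. Kit had no read in the 3 B libraries and was at 0.139, 2.32 and 0.0229 CPM in bi, the same order as in L at a lower level. Its lower value with Her2 in bi rests on 2 reads against 13 in the control, 6.05-fold with a 95% counting interval of 1.37 to 55.2. Hmga2 was at 160, 31.3 and 325 CPM in B and 72.0, 14.5 and 234 CPM in bi, the order of L in both. Areg was at 16.1, 0.937 and 58.1 CPM in B and 13.7, 2.11 and 72.8 CPM in bi, again the order of L. Postn differed: it was at 1277, 312 and 8.56 CPM in B, lower with MYC, and at 50.4, 260 and 13.8 CPM in bi, higher with MYC. Krt7 was at 0.745, 0.457 and 0.536 CPM in B and 11.6, 18.5 and 14.2 CPM in bi, so that the difference with Her2 seen in L was not present in either. Mmp10 was at 6.76, 0.228 and 1.13 CPM in B, and at 1.96, 0.0788 and 21.9 CPM in bi.

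**Figure D5:**
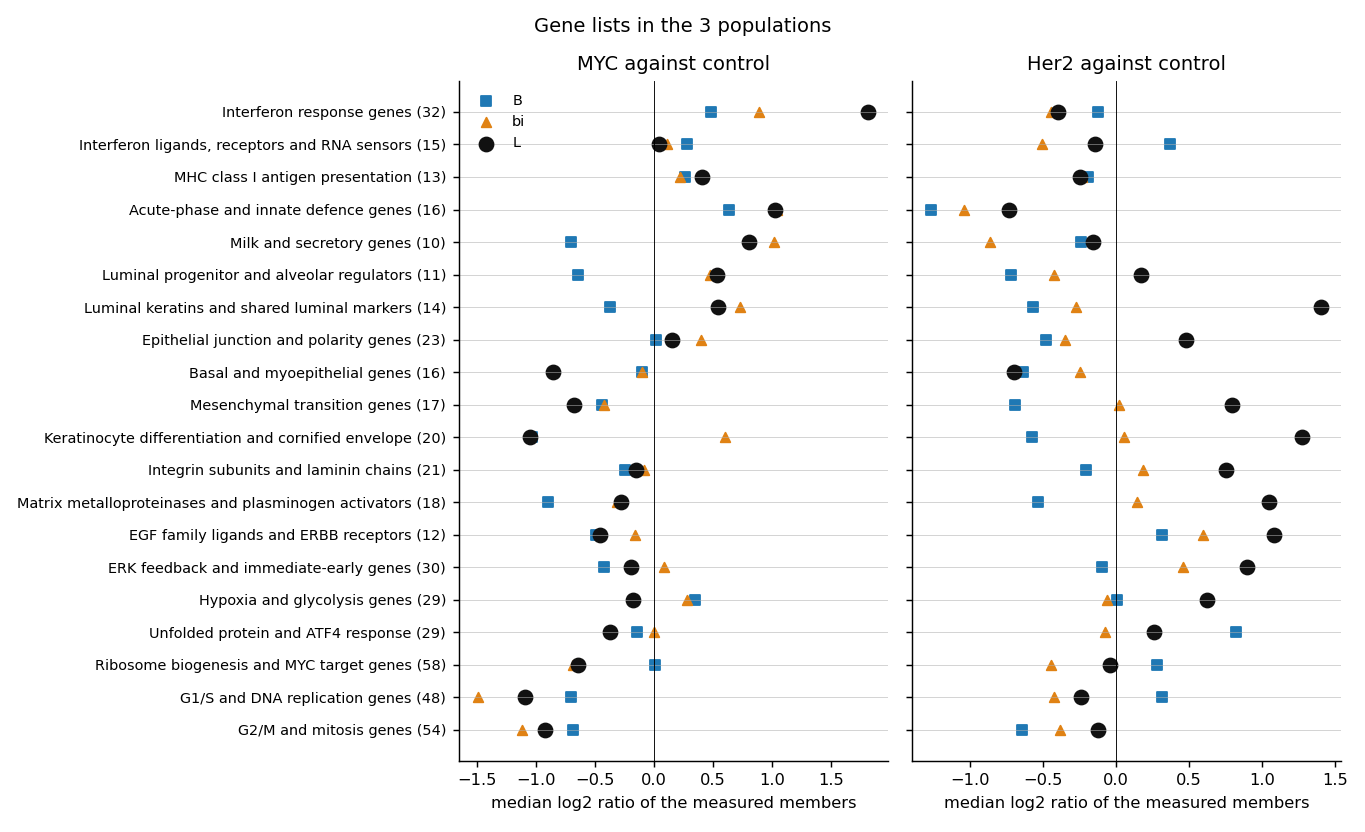
Median log2 ratio of the measured members of 20 gene lists in L (black circles), B (blue squares) and bi (orange triangles), for MYC on the left and Her2 on the right, with the number of members in brackets. For interferon response genes with MYC the medians are 1.82 in L, 0.89 in bi and 0.48 in B; for G1/S genes all 3 are below 0.

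By list, interferon response genes had a median MYC ratio of 1.82 in L, 0.89 in bi and 0.48 in B, with 15 of 32 higher in bi and 2 in B. As 14 of these passed the floor only through L MYC, the 17 at 5 CPM in L control were read too: their medians were 0.75 in L, 0.44 in bi and 0.46 in B, with 8, 4 and 0 higher. G1/S genes had -1.09 in L, -1.49 in bi and -0.71 in B. Keratinocyte differentiation genes had -1.05 in L, -1.03 in B and 0.60 in bi with MYC, and 1.27 in L, -0.57 in B and 0.06 in bi with Her2. Ivl, for example, was at 8.56, 23.5 and 16.4 CPM in bi, higher with MYC, the reverse of L. EGF family genes, with Erbb2 among them, had a median Her2 ratio of 1.08 in L, 0.59 in bi and 0.31 in B. ERK feedback genes had 0.90 in L, 0.46 in bi and -0.10 in B.

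The libraries of B and bi, which the L ratios do not use, allow a test of the mean oncogene effect over these 2 populations. It used edgeR's quasi-likelihood test on all 9 libraries. Its residual spread comes from the difference between the B and bi responses, as neither population has a replicate library. With MYC 42 of 23834 genes passed an adjusted p of 0.05 (0.176%), 12 up (0.0503%) and 30 down (0.126%). Of the 12, 10 were measured in L, where 7 were 2-fold higher, and of the 30, 23 were measured, of which 18 were 2-fold lower. None was 2-fold the other way in L. Over all measured genes, 2.91% were 2-fold higher and 3.89% lower with MYC in L. The 7 were the predicted loci Gm48275, Gm48274, Gm42031, Gm42427 and Gm43305 described above, with Saa3 and Tcp11l2. The genes that fell in B and bi included U90926 (log2 fold change -4.17, SE 0.434, adjusted p = 0.00276), Areg (-3.36, SE 0.365, adjusted p = 0.00329) and Hmga2 (-2.34, SE 0.269, adjusted p = 0.00474), with L ratios of -4.72, -2.11 and -2.22. With Her2 3 genes passed, all down (0.0126%): Hp (-4.82, SE 0.573), Rassf4, a RAS-association protein (-2.45, SE 0.282), and Col5a2, a collagen V chain (-2.27, SE 0.247), each at an adjusted p of 0.0219 by the same edgeR test. Their L ratios were -4.08, -1.31 and -2.64, so all 3 were 2-fold lower in L too, against 3.39% of all measured genes. The counts depended on single libraries. With a B library left out, MYC calls numbered 5 (control), 196 (MYC) and 1188 (Her2), and Her2 calls 0, 166 and 330. With a bi library left out, MYC calls numbered 13 (control), 63 (MYC) and 1190 (Her2), and Her2 calls 70, 156 and 891.

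Whether the L response differed from the mean of B and bi was tested with the interaction term of the same model. The model has 2 residual degrees of freedom, which come from the difference between the B and bi responses and not from replicates. It takes the single L libraries to vary as those of B and bi do. By edgeR, 0 of 23834 genes passed for MYC and 0 for Her2 (0% each), with 424 and 713 at an unadjusted p under 0.05. DESeq2 with the same model called 2 and 30. Leaving out B Her2 gave 96 calls for MYC and 157 for Her2, bi Her2 95 and 422, B MYC 15 and 29, bi MYC 28 and 31, bi control 0 and 2, and B control 0 and 0. The 2 for MYC were Myl9, a myosin light chain under 5 CPM in all 3 L libraries, and Krtdap, a keratinocyte protein. Krtdap was at 69.8, 13.7 and 45.3 CPM in L, with MYC ratios of -2.35 in L, 0.05 in B and 0.35 in bi. All 30 for Her2 were higher in L. Flnc was closest by edgeR, with a Her2 response 3.60 log2 above that of B and bi (SE 0.420, adjusted p = 0.0540), and the L, B and bi ratios were 3.72, 0.02 and 0.22. The next smallest p-values for Her2 were those of Krt7, Klk6, Ccbe1 and Serpinb2, each at an adjusted p of 0.505 by edgeR's quasi-likelihood test, and for MYC those of Krtdap, Cd34, Myl9, Adh7 and Gstp2.

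Without a test, the MYC ratio of L was at least 2-fold apart from that of B in 1143 genes and from that of bi in 442, and the Her2 ratio in 1626 and 983. In 109 genes the MYC ratio of L was 2-fold above those of both B and bi and in 97 below both. For Her2 the counts were 370 above and 74 below. These counts compare single libraries, and no spread between replicates stands behind them.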

How the data were processed

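RNA from 9 sorted Comma-1D libraries, 1 for each of 3 populations and 3 arms, was sequenced. Per the labels' protocols, RNA was isolated with RNeasy Micro or miRVana kits and libraries were made with the stranded KAPA RNA HyperPrep kit with RiboErase, although the molecule is labelled polyA RNA. The authors made the deposited values, an estimated count and a TPM per gene, with Salmon 0.9.1 on mm10, per the submitters' processing notes and the file headers. Which Salmon settings and annotation the authors used is not given in the sources used here. Symbols were matched for all but 174 of 54281 gene IDs, and coordinates come from GENCODE on the same build.

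Estimated counts were rounded and scaled by TMM in edgeR 4.0.16 (R 4.3.3). Genes were kept by filterByExpr (minimum count 10, total 15), which left 23834. Ratios are log2 CPM with a prior count of 2. Near-identical genes may share reads. In B and bi, and for L against them, edgeR's quasi-likelihood test with Benjamini-Hochberg adjustment was fitted with population, arm and an L by arm term, checked on simulated data. Such p-values cover only the spread between these libraries, which comes from the difference between the B and bi responses and not from replicates. DESeq2 1.42.0, other scalings, floors, thresholds and leaving out libraries were alternatives.

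The members and gene lists were chosen with earlier results of these data known. Named genes are the 10 with the largest ratio in each of 8 response classes at 10 CPM or more, up to 3 each way per list and members at the head of a pathway. Some further list members and genes shown for their B and bi values were chosen after values were seen. Counts at 0 were compared with a floor of 3 reads. Some items are not reported here.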

Additional observations from a re-analysis of the deposited data

Results flagged for a closer look

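Ltf, the milk protein lactoferrin, was higher with Her2 in L, with a log2 ratio of 1.07, and lower in both other populations, at -5.01 in B and -2.27 in bi. In B the value rests on 1 read with Her2 against 87 in the control. The median Her2 ratio of the 14 measured luminal keratins and shared luminal markers was 1.406 in L, -0.57 in B and -0.28 in bi. Both drew attention because the L value was above 0 and the values in B and bi were below 0. For the list, the bi median was close to that of all measured genes in bi, -0.26. It was -0.09 on library totals and -0.06 on TPM. In B many such markers were near the floor, and the 9 luminal markers summed to 6.67 CPM in B control. For Ltf, edgeR put the Her2 response of L 5.25 log2 above the mean of B and bi (SE 1.74, adjusted p = 1). With the bi control library left out the estimate was 9.79. That run has no bi control, so its value does not compare bi Her2 with bi control and lends the difference no weight. The difference of the list medians was not tested. Each value rests on 1 library per population and arm.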

How the results depend on the processing

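No paired analysis was possible because each population and arm has 1 library and the replicate numbers only name it, though the edgeR model compares arms within a population. With DESeq2 size factors and with prior counts of 0.5 or 10, all 23 counts described for L stayed within 1.5 times. No single gene named reversed under any alternative run, but sizes shifted. Of the values other than these counts, 53 shifted and 70 stayed the same on library totals. On TPM 77 shifted and 46 stayed the same. On library totals, genes lower with MYC numbered 270, MYC only 176 higher and 81 lower, Her2 only 215 higher and 253 lower, opposite with MYC higher 145, G1/S genes lower 17 and G2/M genes lower 7. On TPM, genes higher with Her2 numbered 371, MYC only lower 122, Her2 only 202 higher and 253 lower, both higher 7 and opposite with MYC lower 71. With a floor of 20 CPM, genes higher with MYC numbered 124, lower with Her2 195, MYC only higher 39, Her2 only lower 89, both higher 10 and lower 11, opposite with MYC higher 39, interferon 9 and acute-phase 3. With a floor of 1 CPM they were 761 higher with MYC, 1005 higher and 686 lower with Her2, 315 MYC only higher, 294 Her2 only lower, 73 both higher, 48 both lower, 157 opposite with MYC higher and 36 interferon. With a floor of 5 CPM in L control, chosen after seeing the data, they were 151 higher with MYC, 52 MYC only higher, 10 both higher, 42 and 83 opposite with MYC higher and lower, 8 interferon, 3 acute-phase and 5 protease genes. At 1.5-fold, MYC moved 828 up and 1654 down, Her2 1366 and 939, MYC only 378 and 1111, Her2 only 826 and 491, both 142 and 131, opposite 262 and 329. At 4-fold these were 74 and 42, 195 and 97, 20 and 6, 71 and 29, 3 and 0, and 17 and 18. With a limit of log2 1 for the other arm, MYC only higher was 207 and Her2 only lower 260; with 0.25, MYC only was 69 and 110 and Her2 only 161 and 82. For B and bi, edgeR with DESeq2 size factors called 78 genes for MYC and 17 for Her2, DESeq2 351 and 166, and no filter 740 and 461; leaving out a library gave 5 to 1190 and 0 to 891. For L minus B and bi, these were 0 and 4, 2 and 30, and 61 and 127, and leaving out a library gave 0 to 96 and 0 to 422. Without a test, L differed 2-fold from B alone in 1143 and 1626 genes and from bi alone in 442 and 983. The cause of these changes was not tested. Where an L library is left out, no ratio or L test can be had.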
